A study of Homo sapiens with 6 samples.

Results

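The genes described here encode the enzymes that take nucleotides apart: the 5 nucleotidases inside the cell NT5C, NT5C2, NT5C3A, NT5C3B and NT5M, the nucleotidase on the cell surface NT5E, and the 3 enzymes TYMP, UPP1 and DPYD that carry pyrimidine nucleosides and bases further down. They were taken by symbol from the deposited table, which held all 9 of them among its 16197 genes. The series measured RNA in 6 libraries of Panc1 cells, an established line from a human pancreatic carcinoma, with 3 libraries from cells given the solvent DMSO and 3 from cells given BRQ. The compound is called a DHODH inhibitor in the series title, DHODH being the mitochondrial enzyme of UMP synthesis, and BRQ is taken to stand for brequinar. Both groups were grown in DMEM with fetal bovine serum, and dose and exposure time are not given in the sources used here. All 6 libraries are labelled as 1 cell line. Whether they were separate cultures is not stated in the labels, so the spread behind each p-value may be technical.

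A nucleotidase removes the phosphate from a nucleoside monophosphate, which leaves a nucleoside that can cross membranes or be used again. For pyrimidines, a phosphorylase then splits uridine or thymidine into a free base and a sugar phosphate, and DPYD reduces uracil and thymine in the step that commits them to breakdown. These reactions run against synthesis and salvage, which fill the same nucleotide pools. DPYD also inactivates the drug fluorouracil, and TYMP and UPP1 take part in its activation.

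After BRQ, NT5C3A, DPYD, NT5E and TYMP stood lower by the largest amounts. NT5C3A, which hydrolyses UMP and CMP, and DPYD changed most, with ratios of mean FPKM of 0.517 and 0.470. FPKM is fragments per kilobase of the length counted for a gene, not of its genomic span, scaled to library size. NT5E stood at 0.650 and TYMP at 0.808 of the DMSO mean. NT5C2 was also called lower, at a ratio of 0.871, and UPP1 was at 0.983. The calls of DPYD and NT5C2, but not those of NT5C3A, NT5E and TYMP, were lost after correction of each library for a trend with genomic span. No member was called higher. In bulk RNA, fewer cells with a transcript and less of it per cell cannot be told apart. Genes were tested with limma on log2(FPKM + 1), two-sided, over the 10689 genes that averaged 1 FPKM or more, and called at a Benjamini-Hochberg adjusted p of 0.05. Of the 8 members above that level, 5 were lower, where 25.2% of all genes tested were called lower. None was higher, against 36.9% of all genes tested, and none was higher at an unadjusted p of 0.05 or by limma's voom on fragments. In the same 5 members all BRQ values lay below all DMSO values, which held for 27.9% of genes tested, and in none did they lie above, which held for 39.3%. The groups did not overlap in 1 direction or the other for 67.2% of genes tested. The median log2 fold change was -0.24 over these 8 members and 0.06 over all genes tested. The members were chosen with results of these data known, so these counts are a description.

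**Figure D1:**
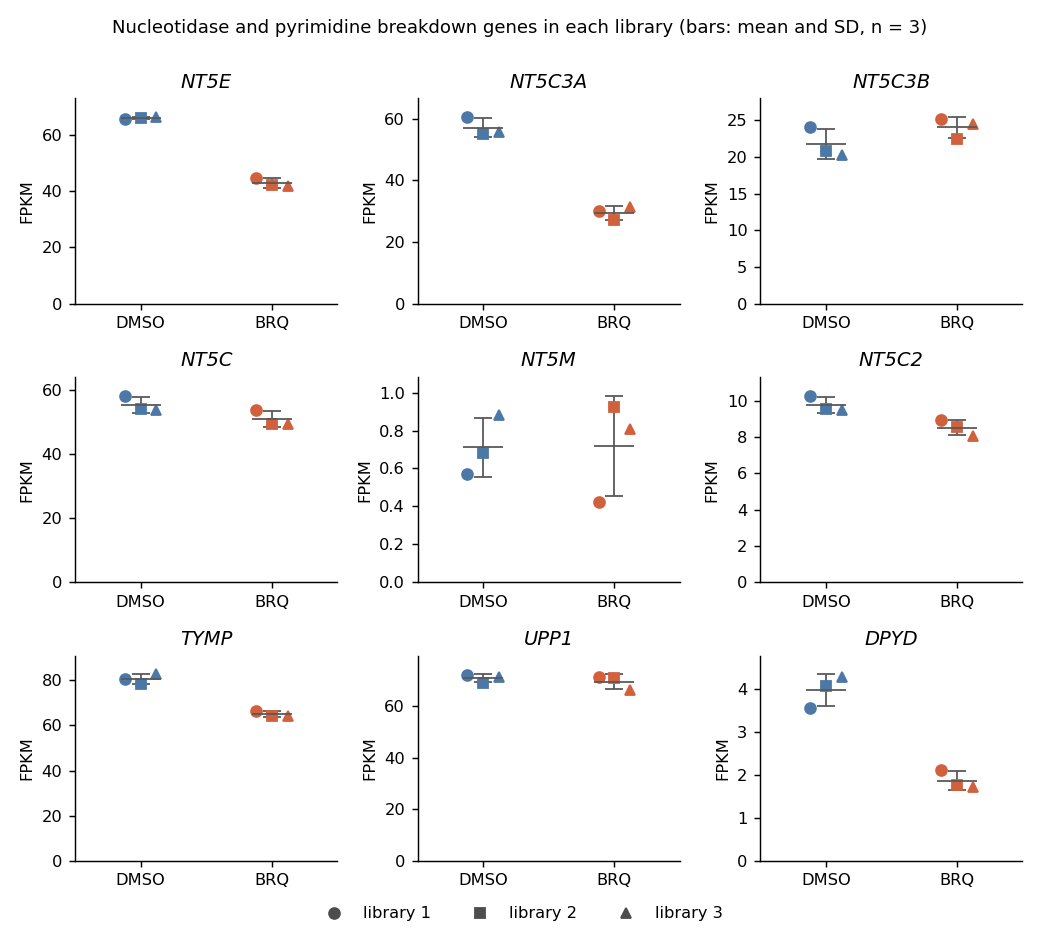
FPKM of the 9 genes in each library, with circles, squares and triangles for libraries 1, 2 and 3 of each group, and the mean and SD (n = 3). The BRQ values of NT5E, NT5C3A, TYMP, NT5C2 and DPYD lie below all of their DMSO values, and those of NT5C3B, NT5C, NT5M and UPP1 overlap with them.

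The low values of the table were whole multiples of what 1 fragment is worth. Whole fragments were thus found for all 16197 genes, as the smallest numbers in proportion. These can be too small for genes with few fragments. Library totals came out at 31993868 to 32916299 fragments in DMSO and 33951989 to 34462018 in BRQ. Every BRQ library was thus deeper than every DMSO library. FPKM divides by these totals, but the summed FPKM still differed. It ran from 357245 to 365776 in DMSO and from 371998 to 387640 in BRQ. BRQ libraries 1 and 2 carried haemoglobin RNA, with HBB at 64.2 and 32.8 FPKM there, 0.739 FPKM in BRQ library 3 and at most 0.677 FPKM in DMSO. The summed level of the 6 red cell markers measured ran from 0.592 to 2.11 FPKM in DMSO and from 1.85 to 88.8 FPKM in BRQ. Its part in the results was not tested. With BRQ library 3 alone set against DMSO, log2 fold changes were -0.85 for NT5C3A, -0.87 for DPYD and -0.65 for NT5E. They were -0.32 for TYMP and -0.25 for NT5C2. These values rest on 1 BRQ library, which gives no spread of its own. All 6 epithelial markers were present, with KRT8, KRT18, KRT19 and EPCAM above 80 FPKM in every library and KRT7 at 1.13 to 1.39 FPKM. Of the 6 leukocyte markers CD68 made up most of the summed level (106 to 113 FPKM in DMSO and 156 to 166 FPKM in BRQ), and PTPRC was at most 0.153 FPKM. LUM made up most of the fibroblast list (52.1 to 55.8 and 77.7 to 84.0 FPKM), and DCN was at most 0.0712 FPKM. The part of these markers in the results was not tested. CDKN2A stood at 46.3 ± 2.73 FPKM in DMSO and 32.5 ± 2.13 FPKM in BRQ (SD, n = 3), although Panc1 is generally described as lacking it. Cell identity was not tested, and the name Panc1 is that of the labels.

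NT5C3A and NT5C3B are paralogs that went apart. NT5C3A (chromosome 7, 33014113 to 33062797, GRCh38, minus strand) is the cytosolic enzyme for UMP and CMP whose loss causes a haemolytic anaemia, and interferon is known to induce it. Its 3 DMSO values were 60.5, 54.8 and 55.6 FPKM, and its BRQ values were 30.2, 27.0 and 31.2 FPKM. Each BRQ value was thus well under the lowest DMSO value. The log2 fold change was -0.93 ± 0.06 (SE, limma adjusted p = 5.26e-07), and only 62 of the 10689 genes tested had a lower one. The calls rested on 3255 to 3656 fragments per DMSO library and 1721 to 1996 per BRQ library. NT5C3B (chromosome 17, 41825181 to 41836263, minus strand), whose enzyme also acts on the methylated guanosine monophosphate left from mRNA caps, had 24.0, 20.8 and 20.2 FPKM in DMSO and 25.2, 22.5 and 24.4 FPKM in BRQ. The groups overlapped, and the log2 fold change of 0.14 had a 95% interval of -0.01 to 0.29 (adjusted p = 0.0949). NT5C3B was called higher without DMSO library 1 (0.21, adjusted p = 0.0160) and without BRQ library 2 (0.19, adjusted p = 0.0497). Within each library, the ratio of NT5C3A to NT5C3B in FPKM was 2.52, 2.63 and 2.74 in DMSO and 1.20, 1.20 and 1.28 in BRQ. NT5C3A thus kept the higher level of the pair in every library, by a smaller margin after BRQ.

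The promoter windows of these genes are shown because the paralogs went apart although the outer NT5C3A window and the NT5C3B window are alike in base composition. RefSeq (GRCh38.p14) lists 2 starts for NT5C3A, an outer one rich in CG and an inner one that is not. Each window runs 5′ to 3′ from 250 bases before to 50 bases after a start, and capitals mark matches to short motifs on either strand. The motif of a GC box was searched as GGGCGG, which Sp1 and its relatives are known to bind. The motif of a TATA box was searched as TATAAA, found before the starts of some regulated genes. The core of a hypoxia response element was searched as ACGTG. Matches can run into one another.
NT5C3A outer start (chr7:33062727-33063026, minus strand): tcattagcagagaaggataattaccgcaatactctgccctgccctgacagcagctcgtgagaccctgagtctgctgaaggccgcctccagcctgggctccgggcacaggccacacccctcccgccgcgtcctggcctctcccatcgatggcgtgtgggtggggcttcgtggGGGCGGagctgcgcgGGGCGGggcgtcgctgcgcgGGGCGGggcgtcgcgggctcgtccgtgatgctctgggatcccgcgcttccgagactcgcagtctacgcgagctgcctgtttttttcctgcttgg
NT5C3A inner start (chr7:33040857-33041156, minus strand): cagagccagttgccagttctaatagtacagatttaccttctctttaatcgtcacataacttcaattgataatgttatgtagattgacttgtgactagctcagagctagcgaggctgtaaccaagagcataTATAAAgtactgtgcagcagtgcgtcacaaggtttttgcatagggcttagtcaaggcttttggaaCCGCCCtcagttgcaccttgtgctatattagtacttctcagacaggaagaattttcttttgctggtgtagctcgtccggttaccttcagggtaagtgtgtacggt
NT5C3B (chr17:41836183-41836482, minus strand): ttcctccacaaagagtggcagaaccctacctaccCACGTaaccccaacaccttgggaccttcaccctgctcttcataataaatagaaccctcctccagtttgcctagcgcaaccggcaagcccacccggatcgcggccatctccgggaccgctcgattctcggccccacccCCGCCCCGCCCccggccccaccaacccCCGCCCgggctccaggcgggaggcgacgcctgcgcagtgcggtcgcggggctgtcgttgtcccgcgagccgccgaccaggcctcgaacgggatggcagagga
The outer NT5C3A window is 67.7% G and C with 30 CG pairs and holds 3 GC box matches. The inner one is 43.0% G and C with 7 CG pairs and holds the single TATA box match among the 16 windows of the 9 genes. That match lies before the middle of its window, far from the start, and its function was not tested. A TATA box match occurs in 11.5% of the 35116 windows of the RefSeq table and a GC box match in 45.0%. The values per gene do not say which of the 2 starts the NT5C3A fragments came from. NT5C3B has 3 GC box matches and the single ACGTG match among the 16 windows, where 21.4% of all windows hold one. The core of an interferon response element, GAAANNGAAA, was found in 3.57% of all windows and, among the 9 genes, in 1 window of NT5C2.

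NT5E (chromosome 6, 85449584 to 85495791, plus strand), also called CD73, is anchored in the outer face of the plasma membrane and turns extracellular AMP into adenosine. Its DMSO values were 66.0, 66.0 and 66.5 FPKM, nearly the same in each library, and its BRQ values were 44.9, 42.2 and 41.9 FPKM. The groups were far apart for their spread, at a log2 fold change of -0.61 ± 0.04 (limma adjusted p = 8.30e-07). NT5E had the most fragments of the 9 genes in every DMSO library, with 7525 to 7794 there and 5142 to 5433 in BRQ. Its promoter is shown as the single RefSeq start of the nucleotidase with the highest level in DMSO.
NT5E (chr6:85449833-85450132, plus strand): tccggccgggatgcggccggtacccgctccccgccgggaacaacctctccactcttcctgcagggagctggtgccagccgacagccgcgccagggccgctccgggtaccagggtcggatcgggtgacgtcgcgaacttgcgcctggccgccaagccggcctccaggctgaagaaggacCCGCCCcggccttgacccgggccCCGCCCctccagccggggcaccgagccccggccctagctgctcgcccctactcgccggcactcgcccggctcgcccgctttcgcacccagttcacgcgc
This window is 75% G and C and holds 2 GC box matches, both on the opposite strand, with no ACGTG or TATAAA in these letters. A further list held genes of the ENTPD, ENPP and alkaline phosphatase families and the adenosine receptors. Of its 19 genes, 12 were under the filter and not tested. Those tested were ENTPD2, ENTPD4, ENTPD5, ENTPD6, ENTPD7, ENPP4 and ADORA2A. None of these 7 passed limma's adjusted threshold in either direction, where 62.1% of all genes tested did. At an unadjusted p of 0.05, 2 were higher and none lower, and limma's voom on fragments called the same numbers. Among the adenosine receptors, ADORA2A, the sole receptor tested, was at 0.937 to 1.23 FPKM in DMSO and 0.914 to 1.47 FPKM in BRQ. ADORA2B, under the filter and not tested, was at 0.661 to 0.889 and 0.371 to 0.645 FPKM.

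NT5C and NT5M form the other pair, the cytosolic and the mitochondrial enzyme that act on deoxyribonucleotides. NT5C (chromosome 17, 75130225 to 75131795, minus strand) had 58.3, 54.2 and 53.7 FPKM in DMSO and 53.8, 49.5 and 49.4 FPKM in BRQ. The highest BRQ value overlapped with the DMSO values, and the log2 fold change of -0.12 ± 0.05 (95% interval -0.23 to -0.01) did not pass (limma adjusted p = 0.0606). It did pass under each of the 3 other scalings of the libraries, at log2 fold changes of -0.17 to -0.18, and without BRQ library 1 (-0.16, adjusted p = 0.0146). ARMC7, on the opposite strand, shares 41 exonic bases with NT5C and fell from 5.55 ± 0.229 to 2.03 ± 0.406 FPKM. It was named for that overlap. AC022211.4, a transcript on the same strand as ARMC7 that covers 913 exonic bases of NT5C, was not analysed here, and the strand setting of the counting is not given in the sources used here. NT5M (chromosome 17, 17303335 to 17347663, plus strand) was the least abundant of the 9, at 0.571, 0.682 and 0.881 FPKM in DMSO and 0.422, 0.927 and 0.810 FPKM in BRQ, and fell under the filter. These values stand for 52, 61 and 81 fragments in DMSO and 40, 89 and 78 in BRQ. The BRQ values enclosed the DMSO values. With limma's voom on fragments, the ratio of BRQ to DMSO was 0.975, with a 95% interval of 0.590 to 1.61, so a change within these bounds was not detectable with these libraries. The BRQ libraries differed by more than counting error, since the exact Poisson 95% interval of the 40 fragments ended at 54.5 and those of the 89 and 78 fragments began at 71.5 and 61.7.

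NT5C2 (chromosome 10, 103088017 to 103193306, minus strand) prefers the purine nucleotides IMP and GMP. It had 10.3, 9.56 and 9.46 FPKM in DMSO and 8.92, 8.54 and 8.06 FPKM in BRQ. The groups lay apart by a small gap, and the log2 fold change was -0.18 ± 0.06 (limma adjusted p = 0.0284). The call was lost without DMSO library 1 (adjusted p = 0.107), without DMSO library 2 (0.0508), without BRQ library 2 (0.0572) or without BRQ library 3 (0.101). With each library's trend over genomic span taken out, the value was -0.022 (adjusted p = 0.788) or 0.038 (0.629), depending on the centring. CNNM2, on the opposite strand, shares 1892 exonic bases with it, 36.7% of the exonic bases of NT5C2, and stood at 1.19 ± 0.160 and 1.01 ± 0.0317 FPKM (adjusted p = 0.259).

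The 2 phosphorylases did not move alike. TYMP (chromosome 22, 50525752 to 50530056, minus strand) splits thymidine, and its loss harms mitochondrial DNA by letting thymidine build up. It had 80.6, 78.5 and 82.6 FPKM in DMSO and 66.5, 64.4 and 64.4 FPKM in BRQ. All BRQ values were below all DMSO values, at a log2 fold change of -0.30 ± 0.04 (limma adjusted p = 7.30e-05). TYMP shares 339 exonic bases with SCO2 and 347 with ODF3B on its own strand. SCO2 rose from 19.9 ± 1.97 to 24.2 ± 1.16 FPKM (adjusted p = 0.00492), and ODF3B was at 37.1 ± 1.99 and 35.8 ± 3.74 FPKM (adjusted p = 0.529). How reads on shared bases were assigned is not given in the sources used here, and their part in the TYMP values was not tested. UPP1 (chromosome 7, 48088628 to 48108733, plus strand) splits uridine, the nucleoside that cells can draw on when UMP synthesis is blocked. Its values were 72.0, 69.1 and 71.5 FPKM in DMSO and 71.4, 71.1 and 66.5 FPKM in BRQ. The groups overlapped, and the 95% interval of the log2 fold change of -0.025 ran from -0.12 to 0.07 (adjusted p = 0.631). At 5310 to 5868 fragments per library, UPP1 was counted as deeply as the genes that were called. The ratio of TYMP to UPP1 was 1.12, 1.14 and 1.15 in DMSO and 0.931, 0.906 and 0.968 in BRQ, so the phosphorylase with the higher level was TYMP in every DMSO library and UPP1 in every BRQ library.

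DPYD (chromosome 1, 97077743 to 97995000, minus strand) encodes dihydropyrimidine dehydrogenase. It had 3.56, 4.09 and 4.28 FPKM in DMSO and 2.12, 1.77 and 1.72 FPKM in BRQ, from 983 to 1194 and 502 to 611 fragments per library. The highest BRQ value was well under the lowest DMSO value. The log2 fold change was -0.79 ± 0.09 on the log2(FPKM + 1) scale (limma adjusted p = 2.30e-05), which understates the change at this level, and -1.09 with limma's voom on fragments (adjusted p = 4.87e-08). With the span trend taken out it was -0.16 (adjusted p = 0.104) or -0.10 (0.321), depending on the centring. MIR137HG on its own strand shares 494 exonic bases with DPYD and DPYD-AS1 on the opposite strand 109, and neither was analysed here. The ratio of UPP1 to DPYD in FPKM went from 20.2, 16.9 and 16.7 in DMSO to 33.6, 40.2 and 38.7 in BRQ. The DPYD window is shown because the gene had the largest relative decrease of the 9.
DPYD (chr1:97920985-97921284, minus strand): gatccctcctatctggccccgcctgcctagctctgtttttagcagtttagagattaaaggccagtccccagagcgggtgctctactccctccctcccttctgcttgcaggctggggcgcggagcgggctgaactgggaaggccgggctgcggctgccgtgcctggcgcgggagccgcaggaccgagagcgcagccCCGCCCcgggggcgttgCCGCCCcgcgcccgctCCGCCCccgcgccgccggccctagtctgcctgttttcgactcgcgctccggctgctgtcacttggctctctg
It is 70.3% G and C, lies inside the span that GENCODE 29 gives the gene, and holds 3 GC box matches on the opposite strand. The TYMP windows, not shown, were the richest in G and C of the 16 (80.7% and 80.3%), with 5 GC box matches each. All 9 genes had a window with a GC box match, also the 4 that were not called lower. Of 27305 genes with RefSeq windows, 48.3% had one, and a gene with more windows has more chances of a match. The remaining enzymes of uracil and thymine breakdown were scarce. UPB1, ALDH6A1 and ABAT together reached 0.655 to 1.27 FPKM in DMSO and 0.841 to 1.08 FPKM in BRQ, and none was above the filter. UPP2, DPYS and AGXT2 were not analysed here.

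**Figure D2:**
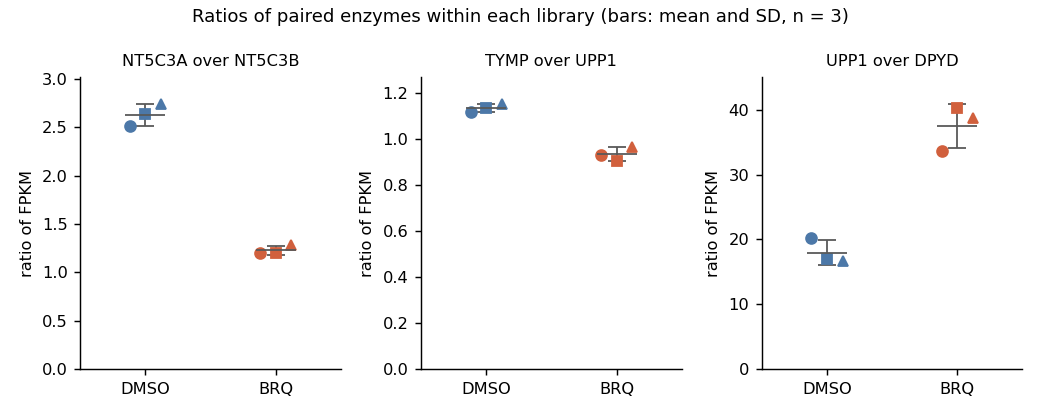
Ratios of FPKM between paired enzymes in each library, with circles, squares and triangles for libraries 1, 2 and 3 of each group, and the mean and SD (n = 3). NT5C3A over NT5C3B and TYMP over UPP1 are lower in every BRQ library than in any DMSO library, and UPP1 over DPYD is higher.

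DPYD spans 917 kb, and long genes were lower in BRQ across the table. Of the 233 tested genes of at least 300 kb, 178 (76.4%) were called lower and 7 higher, and their median log2 fold change was -0.43. DPYD at -0.79 was lower than this median, and 26 of the 233 (11.2%) had a lower value. The value of -0.16 given above came from centring on the library's own median and that of -0.10 from centring on the fitted trend. NT5C2, at 105 kb, sat at the median of its class (-0.18 for 1530 genes of 100 to 300 kb). NT5C3A and NT5E span 48.7 and 46.2 kb, where the median of 3524 genes of 30 to 100 kb was 0.05. In that class 9 genes had a lower log2 fold change than NT5C3A and 82 a lower one than NT5E. After removal of the trend, NT5C3A and NT5E were at -0.92 and -0.61 with centring on the library's own median. With centring on the fitted trend they were at -0.86 and -0.55. TYMP spans 4.31 kb, in a class of 1708 genes of 3 to 10 kb with a median of 0.18. After the removal its log2 fold change was -0.45 centred on the library's own median and -0.39 on the fitted trend. The part of gene length in these changes was not otherwise tested.

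**Figure D3:**
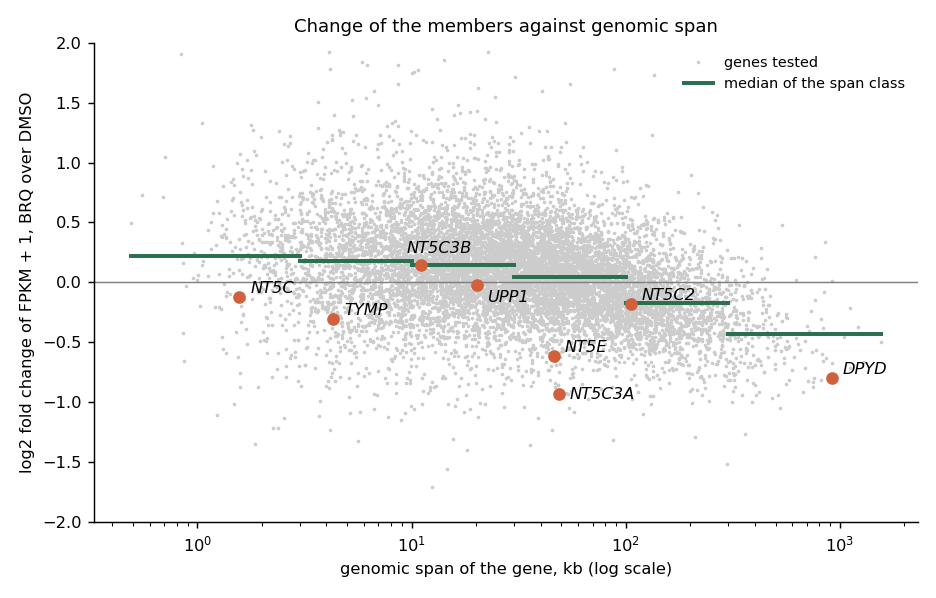
Log2 fold change of FPKM + 1 (BRQ over DMSO) against genomic span in kb on a log axis, for 10485 tested genes with a GENCODE 29 position (grey, of which 8 lie outside the plotted range), with the median of each span class (green) and the 8 tested members (orange). The class medians run from 0.22 under 3 kb to -0.43 from 300 kb, and all 8 members lie below the median of their class, NT5C2 and NT5C3B only just.

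In DMSO the order of levels, which FPKM compares per length, was TYMP, UPP1, NT5E, NT5C3A, NT5C, NT5C3B, NT5C2, DPYD and NT5M. Neighbours in this order did not overlap between libraries, except NT5C3A (54.8 to 60.5 FPKM) and NT5C (53.7 to 58.3 FPKM). In BRQ it was UPP1, TYMP, NT5C, NT5E, NT5C3A, NT5C3B, NT5C2, DPYD and NT5M, with no overlap between neighbours. NT5C thus moved above NT5E and NT5C3A without a call of its own. The FPKM of the 6 nucleotidases summed to 206 to 220 in DMSO and to 151 to 163 in BRQ. NT5E made up 30.03% to 32.2% of this sum in DMSO and 26.9% to 28.0% in BRQ, NT5C3A 26.6% to 27.5% and 17.9% to 20.0%, and NT5C 26.0% to 26.6% and 31.7% to 33.0%.

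**Figure D4:**
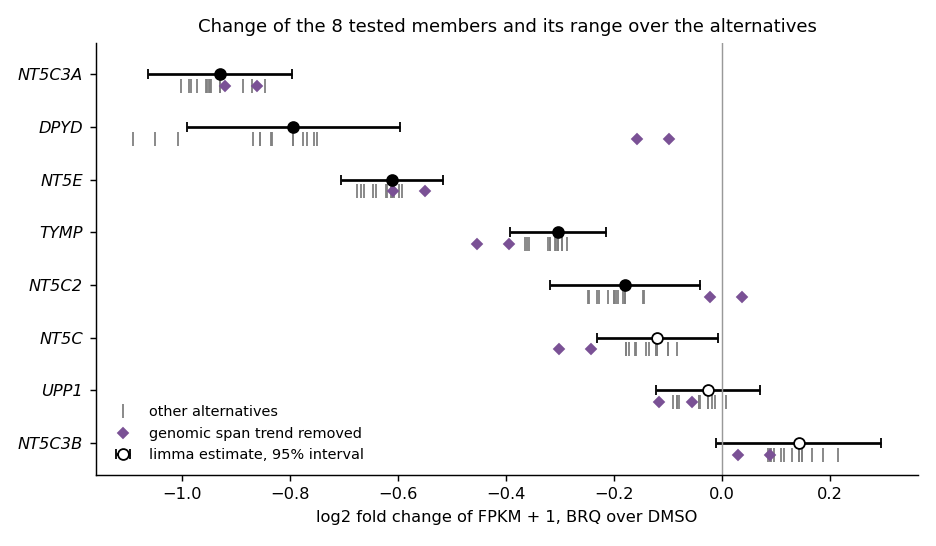
Log2 fold changes of the 8 tested members with 95% intervals (filled circles for an adjusted p under 0.05), above the estimates under the alternative settings, 1 of which (voom) used recovered fragments. NT5C3A, NT5E and TYMP stay at or below -0.286 throughout, and DPYD and NT5C2 come close to 0 when the trend with genomic span is removed.

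Other enzymes of nucleotide turnover moved in both directions, as did the table as a whole. Of all genes tested, 36.9% were called higher and 25.2% lower. The counts below are a description beside these shares. Of 7 further listed genes with a nucleotidase domain or a related activity, 4 were tested, 3 were called higher and none lower (none also at an unadjusted p of 0.05 and by voom). NT5DC2, a nucleotidase-like protein of uncertain substrate, rose from 12.02 ± 0.110 to 21.8 ± 1.17 FPKM (limma adjusted p = 6.88e-07), its relative NT5DC1 from 1.77 ± 0.0875 to 2.69 ± 0.389 FPKM, and SAMHD1, which cleaves deoxynucleoside triphosphates, from 12.1 ± 0.202 to 16.4 ± 0.590 FPKM. Of 7 deaminases and triphosphatases of pyrimidine and damaged nucleotides, 2 were higher and none lower (none also at an unadjusted p of 0.05 and by voom). These were NUDT1, which removes oxidised nucleotides (13.3 ± 0.526 to 22.2 ± 0.889 FPKM), and ITPA, which removes ITP (15.2 ± 0.863 to 19.4 ± 2.0 FPKM). Of 13 tested genes that take up and rephosphorylate nucleosides, 8 were higher and 3 lower. The uridine and cytidine kinases differed in direction, since UCK1 rose from 8.89 ± 1.03 to 14.8 ± 0.205 FPKM (adjusted p = 1.71e-05) and UCK2, named after its values were seen, fell from 29.9 ± 0.202 to 21.4 ± 0.234 FPKM (adjusted p = 6.07e-06). TK1, SLC29A2 and SLC29A3 had the other large changes, with log2 fold changes of 1.36, -0.75 and 0.55. Of 12 tested genes of purine nucleoside breakdown and reuse, 6 were higher and 2 lower. ADK, which phosphorylates the adenosine that NT5E can supply, fell from 9.002 ± 0.577 to 4.57 ± 0.432 FPKM (adjusted p = 4.86e-06), and HPRT1, which salvages hypoxanthine and guanine, from 28.0 ± 0.518 to 20.2 ± 0.611 FPKM. LACC1 rose from 2.84 ± 0.0267 to 5.54 ± 0.386 FPKM and APRT, which salvages adenine, from 71.2 ± 0.644 to 92.2 ± 6.61 FPKM.

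The genes whose levels followed the members most closely over the 6 libraries were taken by Pearson correlation of log2(FPKM + 1) among 7667 genes of at least 5 FPKM. With 2 groups, any gene that differs between them scores high, and 852 genes exceeded 0.95 with NT5C3A. Its closest were TAF1D (0.999), C1orf226 (0.998) and PDCD10 (0.998), of which TAF1D went from 39.4 ± 2.28 to 18.6 ± 1.63 FPKM. NT5E was closest to NR2F1, HNRNPA1 and HRAS (0.999 or more), with HNRNPA1 at 321 ± 3.22 and 167 ± 7.59 FPKM. TYMP was closest to CCNL1, KDELR1 and MAPK6, and DPYD to LGALSL, NCLN and RAC3. NT5C2, which was called lower, had 68 genes above 0.95. The members that were not called had 31 for NT5C, 19 for NT5C3B, 15 for NT5M and 5 for UPP1. These correlations rest on 6 libraries that share a treatment split and are a description.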

How the data were processed

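RNA from Panc1 cells was measured in 3 DMSO and 3 BRQ libraries, grouped by the sample titles. RNA was extracted with TRIzol and libraries followed standard Illumina protocols, per the labels' protocols. The submitters' processing notes name fastp, HTSeq and hg38. Aligner, annotation and strand setting are not given in the sources used here. FPKM values per gene and library were deposited by the authors.

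Fragments were recovered as the smallest whole numbers in proportion to a gene's deposited FPKM values in all 6 libraries (tolerance 0.002 of a fragment, steps found in genes under 0.3 FPKM), and library totals as those at which gene lengths came out in whole bases. Poisson intervals of fragments cover counting error only, and voom intervals the spread between libraries too. limma 3.58.1 in R 4.3.3 was fitted to log2(FPKM + 1) with eBayes, a mean-variance trend and treatment as the sole term, over 10689 genes, with Benjamini-Hochberg adjustment. FPKM is no count, so voom on fragments, added after seeing the data, is an alternative. The fit was tested on simulated data in which 200 of 10689 genes were changed 1.5-fold or 2-fold. It recovered 91% and 97% of these changes, and 5.05% of calls were false. Smaller changes and a shift of many genes were not simulated. Exact permutation tests, which reach no two-sided p under 0.1 with 3 against 3, were not used.

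Positions and overlaps are from GENCODE 29 (GRCh38), which placed 97.4% of genes. The gene lengths behind the deposited values differ from its exon lengths, as for TYMP (1770 against 3320 bases) and NT5C2 (5943 against 5156). The shared exonic bases may therefore not all be among those counted. Promoter sequences are from RefSeq (GRCh38.p14), matched by symbol for all 9 genes. The members, lists and tests were chosen with earlier results of these data known. Named genes are the members, up to 4 called genes of each other list with the largest changes, exonic neighbours and the 3 closest genes by correlation. UCK2, CDKN2A and the markers described were named after their values were seen or as checks. Alternatives were a pseudocount of 0.1, no filter or a mean of 5 FPKM, 3 scalings, a replicate block, robust variance, removal of a trend with genomic span in 2 centrings, and leaving out libraries.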

Additional observations from a re-analysis of the deposited data

How the results depend on the processing

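NT5C3A (log2 fold change -1.001 to -0.85), NT5E (-0.67 to -0.55) and TYMP (-0.45 to -0.29) were called lower under all 18 alternatives, and DPYD under 15 of 17, its adjusted p running from 4.87e-08 to 0.321. A minimum of 5 FPKM left DPYD out. With the genomic span trend removed and centred on the library's own median, DPYD (-0.16, adjusted p = 0.104) and NT5C2 (-0.022, 0.788) lost their calls and NT5C (-0.30, 1.34e-04) and UPP1 (-0.12, 0.0318) were called lower. Centred on the fitted trend, DPYD was at -0.10 (0.321), NT5C2 turned to 0.038 (0.629) and NT5C was called (-0.24, 6.31e-04), and 70.7% of called genes were higher (4619 higher and 1911 lower) against 59.4% as reported. NT5C was also called when libraries were scaled by trimmed means (-0.17), median ratios (-0.18) or TPM (-0.18). Under these scalings 51.9%, 51.3% and 51.7% of called genes were higher, against 59.4% as reported. Leaving out each library in turn moved NT5C from -0.16 to -0.083 (adjusted p 0.0146 to 0.223), NT5C2 from -0.21 to -0.14 (0.0191 to 0.107), NT5C3B from 0.10 to 0.21 (0.0160 to 0.291) and UPP1 from -0.043 to 0.0077 (0.411 to 0.896). It gave 4 to 6 members called lower and 0 to 1 higher. The causes were not tested. Whether replicate numbers pair the libraries is not given by the labels. Same-numbered deviations correlated at 0.144, 0.00804 and 0.0584, and unlike-numbered ones at -0.137 to 0.105. These few correlations cannot decide it. With the replicate block, NT5C (-0.12, adjusted p = 0.0217) and NT5C3B (0.14, 0.0434) also passed, which made 1 member higher. NT5M had 40 to 89 fragments per library, and its BRQ libraries differed by more than counting error.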
